A study of Mus musculus with 18 samples.

Results

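The genes described here are 39 genes of the G2 phase and mitosis, the stretch of the cell cycle that runs from the end of DNA replication to the separation of the daughter cells. They were listed by name, for their known roles, and the rule uses no measured value. The list was, however, chosen with earlier results of these data known. All 39 were found by symbol among the 43432 gene identifiers of the deposited tables.

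Expression had been measured by RNA sequencing in 18 libraries made from intestinal stem cells sorted from mice, which divide in the crypts and renew the epithelium. The animals were 8 to 16 weeks old and were either wild type or carried a conditional knock-out of Dlg1, a scaffold protein of cell polarity and cell junctions. Mice of both genotypes had received tamoxifen, and tissue was taken after 48 hours (2 days) or after 14 days. There were 4 wild-type and 4 knock-out libraries at 2 days, and 5 and 5 at 14 days. Each library came from 5000 to 10000 sorted cells. The labels name neither the sorting reporter, the Cre driver nor the deleted exons, and they do not say whether each library came from a separate mouse, so p-values measure the spread between these libraries, which may in part be technical. At 2 days the knock-out columns carry the name Dmin, read here as Dlg1 minus, and each comparison that uses them rests on that reading. Libraries are numbered within a group only to name them, since column names hold no replicate number.

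Entry into mitosis is driven by the kinase Cdk1 bound to cyclins of the A and B type, which the phosphatases Cdc25b and Cdc25c switch on. Microtubule motors then build the spindle, kinetochores attach it to the chromosomes, and the checkpoint proteins hold the cell until every chromosome is attached. The anaphase-promoting complex, with Cdc20 and Ube2c, next destroys cyclin B and securin, separase cuts the ties between sister chromatids, and the central spindle and contractile ring split the cell. Transcripts of these genes accumulate in G2 and mitosis, so in a bulk library their level follows the share of cells in those phases as well as the RNA per cell, and fewer such cells and less RNA per cell cannot be told apart.

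Many genes of this group share a pair of short promoter elements, a CCAAT box and the cell cycle homology region TTTGAA, and both words were searched on both strands in windows from 250 bases before to 50 bases after the start (RefSeq, GRCm38.p6). RefSeq windows were matched by symbol for 33 of the 39 genes, which gave 35 windows of 300 bases. Not matched were Ccna2, Cdc25c, Tpx2, Aurkb, Incenp and Kif20a. CCAAT or its reverse complement ATTGG was in 26 of the 35 windows (74.3%), against 37.4% of all 32851 windows of that length. TTTGAA or its reverse complement TTCAAA was also in 26 windows (74.3%), against 17.9% of all windows. Both words stood in 22 windows (62.9%), against 6.95% of all windows, and no match of one word overlapped a match of the other. Among S phase genes, 65.2% of 46 windows held CCAAT 10.9% held TTTGAA and 8.7% held both. Among other mitosis genes, 62% of 108 windows held CCAAT, 45.4% held TTTGAA and 30.6% held both. The 250 bases before the start are printed 5′ to 3′ on the gene's strand for 4 genes that hold both words and describe different patterns below. Pttg1, the gene with the smallest p at 14 days, is printed too, and its RefSeq window holds neither word. That window lies inside the annotated gene (chr11:43420250-43426251), so the bases before the annotated gene's own start were not searched. Capitals mark the matches.
Cdk1 (chr10:69352913-69353162, minus strand): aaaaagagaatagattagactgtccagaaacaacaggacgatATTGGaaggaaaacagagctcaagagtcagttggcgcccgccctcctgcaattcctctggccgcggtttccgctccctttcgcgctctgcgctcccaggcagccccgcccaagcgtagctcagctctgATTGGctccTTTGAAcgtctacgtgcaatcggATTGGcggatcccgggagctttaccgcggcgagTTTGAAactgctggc
Top2a (chr11:99024190-99024439, minus strand): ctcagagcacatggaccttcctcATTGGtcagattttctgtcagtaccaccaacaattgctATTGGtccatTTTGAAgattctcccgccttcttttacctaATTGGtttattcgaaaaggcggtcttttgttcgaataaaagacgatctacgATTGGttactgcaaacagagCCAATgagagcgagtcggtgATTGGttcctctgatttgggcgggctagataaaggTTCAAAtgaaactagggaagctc
Ube2c (chr2:164769679-164769928, plus strand): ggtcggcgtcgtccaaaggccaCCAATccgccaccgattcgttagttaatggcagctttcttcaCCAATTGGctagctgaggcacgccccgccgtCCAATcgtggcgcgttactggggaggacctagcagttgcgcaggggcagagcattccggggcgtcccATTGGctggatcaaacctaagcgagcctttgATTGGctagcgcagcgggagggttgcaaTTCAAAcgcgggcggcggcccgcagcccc
Hmgb2 (chr8:57511593-57511842, plus strand): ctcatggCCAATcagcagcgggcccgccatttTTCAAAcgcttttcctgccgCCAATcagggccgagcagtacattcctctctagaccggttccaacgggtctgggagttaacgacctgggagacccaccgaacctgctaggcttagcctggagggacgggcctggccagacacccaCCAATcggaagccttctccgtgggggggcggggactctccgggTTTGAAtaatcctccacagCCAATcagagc
Pttg1 (chr11:43425982-43426231, minus strand): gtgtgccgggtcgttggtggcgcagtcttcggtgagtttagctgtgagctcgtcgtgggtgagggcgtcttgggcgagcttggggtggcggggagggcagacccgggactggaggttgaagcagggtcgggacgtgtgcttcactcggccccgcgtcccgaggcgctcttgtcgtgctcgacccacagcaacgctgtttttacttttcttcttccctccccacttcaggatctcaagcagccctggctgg

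A match is a description of letters and no measured binding site. Cdk1 holds TTTGAA at 71 and 15 bases before the start, and Top2a holds it at 179 bases before the start and its reverse complement at 23. Ube2c has 6 CCAAT matches of either strand, of which a pair shares bases, and Hmgb2 has 4.

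Library totals were 14.8 to 40.5 M counts at 2 days and 11.1 to 15.7 M at 14 days, and the 39 genes together took 0.276% to 0.774% of a library's counts. Levels are given as CPM, counts relative to a library's TMM-scaled total, with libraries of each time scaled together unless a joint scaling is named. Both the largest total and the largest mitochondrial share (49.1%) belonged to wild-type library 1 of 2 days. In knock-out library 5 of 14 days predicted Gm gene models took 48.05% of the counts, against at most 11.7% in the other libraries of that time. Dlg1 transcripts themselves overlapped between genotypes, at 48.3 to 69.5 CPM in wild type and 38.4 to 58.0 CPM in knock-out at 2 days, and at 60.5 to 85.8 and 41.8 to 101 CPM at 14 days. The 101 CPM belonged to knock-out library 5 of 14 days, above every wild-type library of that time, and the other knock-out libraries were at 41.8 to 70.3 CPM. Counts over the whole gene include exons that a deletion may leave in place, so they do not check the labels. All 15 stem cell markers were at 1 CPM or more in every library, among them Lgr5. The same held for 10 of 10 goblet, 19 of 20 enterocyte and 9 of 10 Paneth markers, so this level does not set stem cells apart. It held for 2 of 15 immune markers, while 12 of 15 immune markers and 8 of 11 stromal and endothelial markers were at 0 in some libraries.

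Per kilobase of exon, the proliferation marker Mki67 was the highest of the 39 genes at 2 days, at 166 ± 48.9 CPM per kb in wild type (SD, n = 4) and 129 ± 5.67 in knock-out. Next came Ube2c, the ubiquitin-conjugating enzyme of the anaphase-promoting complex, at 105 ± 18.6 CPM per kb in wild type, and the SDs of the 2 genes overlapped. At 14 days the order was headed by the cyclin Ccnb2, at 97.2 ± 35.02 CPM per kb in wild type and 103 ± 19.00 in knock-out (SD, n = 5 each), with Ube2c at 77.2 ± 17.98 and Mki67 at 74.7 ± 6.28 in wild type. These first-placed genes at 14 days did not stand apart from each other beyond their SDs. Lowest were Espl1, which encodes separase, and Kif20a, a kinesin of the central spindle. In wild type Espl1 was at 4.33 ± 1.57 CPM per kb at 2 days and 3.11 ± 0.989 at 14 days, and Kif20a at 4.73 ± 1.53 and 3.95 ± 2.36. The sources used here do not give the strand setting of the counting, so values are uncertain where exons overlap a gene on the other strand. This holds for Ccna2 with Exosc9, Nusap1 with Oip5, Kif20a with Cdc23, Kif4 with Pdzd11, Cdc20 with Elovl1, Cdc25b with Spef1, Cdc25c with Gm3550, Ube2c with Tnnc2, Prc1 with Rccd1 and Plk1 with Gm44985. Top2a overlaps Gm23451 on its own strand, and Ccnb1, Ccnb2 and Kif4 have annotated pseudogenes.

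**Figure D1:**
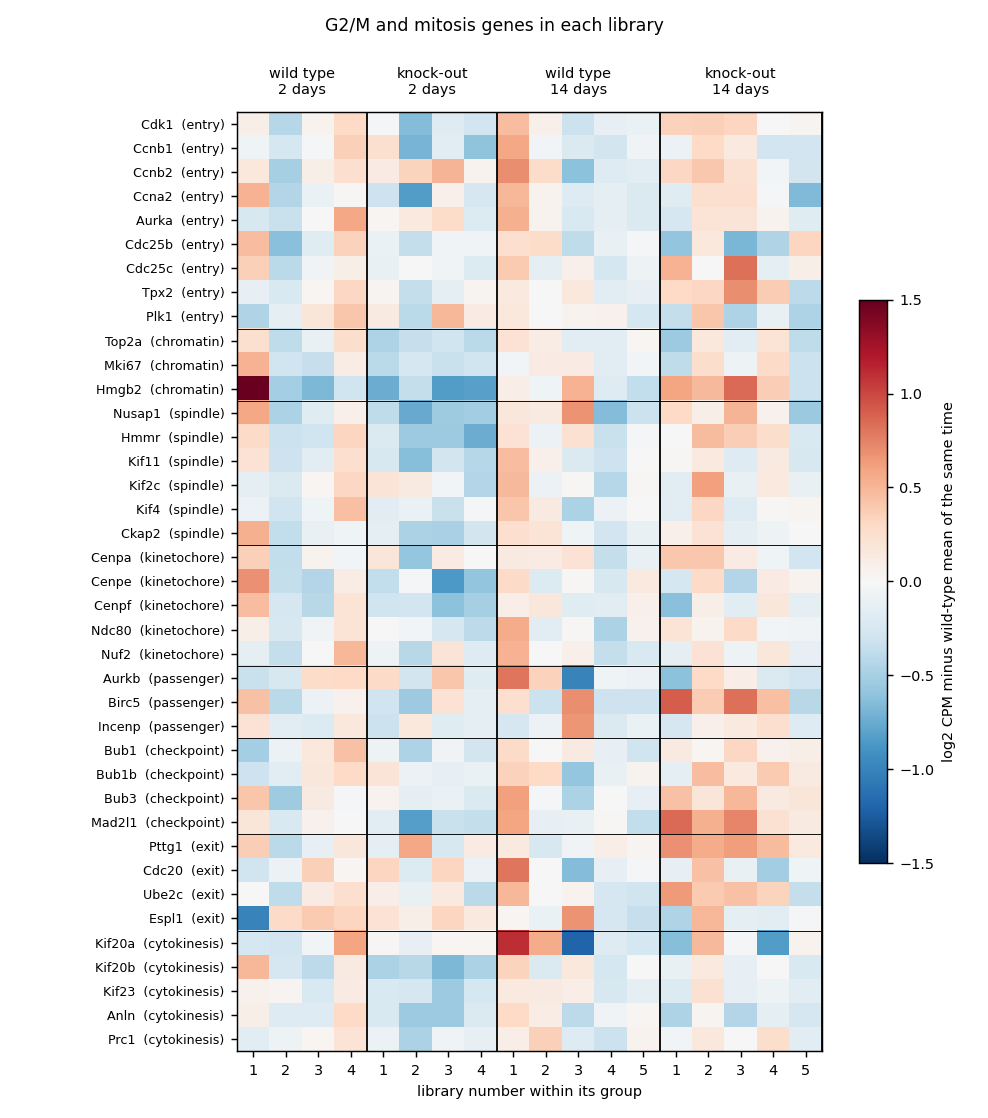
Level of each of the 39 genes (rows, with their role) in each of the 18 libraries (columns), as log2 CPM minus the wild-type mean of the same time (pseudocount 0.5). At 2 days the knock-out columns are mostly blue in the chromatin, spindle and cytokinesis rows, while the wild-type columns differ widely among themselves; at 14 days blue and red are mixed in both genotypes.

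At 2 days after tamoxifen, no gene of the set passed the test between genotypes. Most of the estimates lay below 0. Of the 39 genes 32 had a negative log2 fold change in the knock-out and 7 a positive one, with a median of -0.18, where 49% of the 13031 genes tested were negative and their median was 0.01. edgeR's quasi-likelihood F test (Benjamini-Hochberg adjusted) called 0 of the 39 genes and 0 (0%) of all genes, and the smallest adjusted p among the 39 was 0.866. DESeq2 and limma voom also called none of the 39, with 11 (0.0844%) and 0 calls over all genes. At an unadjusted p under 0.05 edgeR listed 640 genes (4.91%), 355 higher (2.72%) and 285 lower (2.19%), and 10 of the 39 were among these, each lower in the knock-out. The 10 genes were Kif20b, Nusap1, Hmmr, Anln, Mad2l1, Kif11, Hmgb2, Cenpf, Top2a and Kif23.

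The wild-type libraries of 2 days differed widely among themselves in these genes. The mean log2 CPM of the 39 genes lay 0.22 above the wild-type mean in wild-type library 4 and 0.13 above it in library 1, while its distance was -0.06 in library 3 and -0.29 in library 2. In knock-out libraries 1 to 4 the distances were -0.10, -0.29, -0.15 and -0.25. Wild-type library 2 was thus as low as the lowest knock-out library, and the 2 groups overlapped. Without wild-type library 4, the highest, 26 of the 39 estimates were negative and 3 genes had an unadjusted p under 0.05; without wild-type library 2, these counts were 35 and 12. Without wild-type library 1, the deepest, they were 34 and 6, and without knock-out library 4 they were 30 and 3. The other left-out libraries gave 32 to 36 negative estimates, with 6 genes under 0.05 without knock-out library 2 or 3, 7 without knock-out library 1 and 11 without wild-type library 3. Shares over all genes are not given for these fits, so the counts stand without a background.

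Column names at 2 days open their last part with 45, 51 or 64, whose meaning is not given. The 45 libraries were wild-type 1 and 2 only, so they allow no comparison. Between the 51 libraries, 1 of each genotype, 25 of the 39 genes were lower and 14 higher in the knock-out, with a median difference of -0.04 in log2 CPM. Among the 64 libraries, 3 knock-out and wild-type library 4, 38 genes were lower and the median difference was -0.44. The last comparison has wild-type library 4 as its only wild-type library. With the opening digits as a block in edgeR, a fit chosen after seeing the data, 36 estimates were negative with a median of -0.28, and 2 genes had an unadjusted p under 0.05. The shares over all genes in that fit are not given.

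Markers of other cell types were spread unevenly at this time. Of 20 enterocyte markers, 20 had a positive estimate and 11 an unadjusted p under 0.05, and their summed level was 2246 to 2774 CPM in wild type and 2353 to 6805 CPM in knock-out libraries, with the highest value in knock-out library 1. Of 10 goblet markers, 9 were positive, with sums of 525 to 698 and 504 to 1368 CPM. Tuft markers were positive for 6 of 8 tested genes, with sums of 8.52 to 32.97 and 11.9 to 72.7 CPM. In this list Ltc4s and Gfi1b were at 0 in some libraries. Paneth markers were positive for 6 of 10, with sums of 230 to 3529 and 787 to 2386 CPM, the lowest in wild-type library 4. Enteroendocrine markers were positive for 4 of 10 tested genes, with sums of 104 to 178 and 35.7 to 355 CPM. The 15 stem cell markers summed to 6288 to 6769 CPM in wild type and 5221 to 6020 CPM in knock-out, 2 ranges that did not overlap. Much of these sums came from Olfm4, with means of 2953 and 2432 CPM, and Slc12a2, with 1557 and 1289 CPM. Of the 15 estimates 11 were negative and 4 positive, and 0 had an unadjusted p under 0.05 in edgeR. None of these markers was called by edgeR's quasi-likelihood F test (Benjamini-Hochberg adjusted). The smallest adjusted p of that test was 0.889 in the Paneth list and 0.866 in each of the other lists. The part of the markers in the lower estimates was not tested. Without knock-out library 1, which had the highest enterocyte sum, 33 of the 39 estimates were negative. In that edgeR fit 7 genes had an unadjusted p under 0.05, against 10 with all libraries. Leaving out 1 library does not test the part of the markers.

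The cytokinesis genes held the 3 whose groups did not overlap. In Kif20b, Anln and Kif23 each knock-out library lay below every wild-type library, which is 7.69% of the 39 genes against 1.94% of all genes in this direction, 2.03% in the other and 3.98% in either. In 19 of the 39 (48.7%) every knock-out library lay below the wild-type mean, against 14% of all genes. Kif20b, a kinesin that acts late in cytokinesis (chr19:34922361-34975745, plus strand), was at 267, 158, 144 and 206 CPM in wild type, in the order of libraries 1 to 4, and 135, 141, 118 and 135 CPM in knock-out (in the same order, as throughout). The knock-out libraries lay close together just under the lowest wild-type library, and wild-type library 1 stood far above the rest. Its log2 fold change was -0.55 ± 0.20 (SE), and -0.36 without wild-type library 1. Anln, which encodes anillin, a scaffold of the contractile ring (chr9:22332012-22389188, minus strand), was at 155, 128, 128 and 180.3 CPM in wild type and at 125, 101, 100.1 and 126 CPM in knock-out. Here the gap between the groups was small beside the range within each, and the log2 fold change was -0.39 ± 0.17. Kif23, a motor of the centralspindlin complex (chr9:61915905-61946774, minus strand), was at 175, 172, 142 and 182 CPM in wild type and 142, 140.3, 114 and 139 CPM in knock-out, with a log2 fold change of -0.32 ± 0.15. The lowest wild-type and the highest knock-out library differed by less than 1 CPM.

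A two-sided exact permutation test of the libraries' mean log2 CPM gave p = 0.0286 for each of the 3, among 78 such tests over both times. This is the smallest p that 70 assignments of 4 against 4 libraries can give. Every gene whose groups do not overlap reaches it, so it restates the separation by which the 3 were picked and adds no support. Within the 51 libraries the log2 differences were -0.09 for Kif20b, -0.04 for Anln and -0.0028 for Kif23, and within the 64 libraries they were -0.65, -0.73 and -0.47. Without wild-type library 2, 9 of the 39 genes had knock-out libraries wholly below wild type, against 3.81% of all genes with the same libraries. Without knock-out library 1 there were 6, against 3.45% of all genes, and without any other single library 3 or 4, against 2.66% to 3.82%. The remaining cytokinesis genes were Prc1, a microtubule bundler of the central spindle, at 121 ± 13.3 CPM in wild type and 107 ± 13.7 CPM in knock-out (SD, n = 4 each), and Kif20a, at 20.5 ± 6.64 and 19.7 ± 1.03 CPM. Both overlapped between genotypes, with log2 fold changes of -0.18 and -0.06.

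All 6 spindle genes had negative estimates, from -0.60 to -0.03, and 3 of them an unadjusted p under 0.05. Nusap1, which bundles microtubules near chromosomes (chr2:119618298-119651244, plus strand), was at 222, 106, 130.2 and 155 CPM in wild type and 114, 87.3, 102 and 103 CPM in knock-out. Under the wild-type minimum were 3 of the knock-out libraries, and wild-type library 1 was the highest of all. The log2 fold change was -0.60 ± 0.21 (unadjusted p = 0.0159, edgeR), and -0.37 without wild-type library 1. Hmmr, a microtubule-associated protein of the spindle poles, was at 155, 101, 103 and 158 CPM in wild type and 109, 86.2, 86.1 and 75.3 CPM in knock-out, again with 3 knock-out libraries below every wild-type library and a log2 fold change of -0.54 ± 0.20. Kif11, the motor that pushes the spindle poles apart, was at 316, 219.9, 244 and 326 CPM in wild type and 231, 175, 225 and 203 CPM in knock-out. In it 2 knock-out libraries fell short of the wild-type minimum, and the log2 fold change was -0.41 ± 0.17. The other 3 estimates were -0.38 for Ckap2 (-0.17 without wild-type library 1), -0.18 for the chromokinesin Kif4 and -0.03 for the microtubule depolymerase Kif2c, and their groups overlapped.

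The 3 chromatin and proliferation genes were also all negative. Top2a, the topoisomerase that untangles sister chromatids (chr11:98992943-99024189, minus strand), was at 875, 572, 686 and 889 CPM in wild type and 538, 583, 602 and 559 CPM in knock-out. The knock-out libraries lay near the lowest wild-type library, and the log2 fold change was -0.40 ± 0.18. Mki67 was at 2331, 1317, 1274 and 1752 CPM in wild type and 1224, 1361, 1288 and 1313 CPM in knock-out. Wild-type libraries 2 and 3 lay within the knock-out range, and libraries 1 and 4 far above it, so that the log2 fold change of -0.36 ± 0.21 became -0.16 without library 1. Hmgb2, a DNA-bending chromatin protein (chr8:57511907-57515999, plus strand), had the most negative estimate of the 39 genes, and it rested on 1 library. Levels were 116, 28.9, 25.7 and 33.2 CPM in wild type and 24.3, 32.03, 22.8 and 23.1 CPM in knock-out. The log2 fold change was -0.99 ± 0.43 with all libraries and -0.20 without wild-type library 1.

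**Figure D2:**
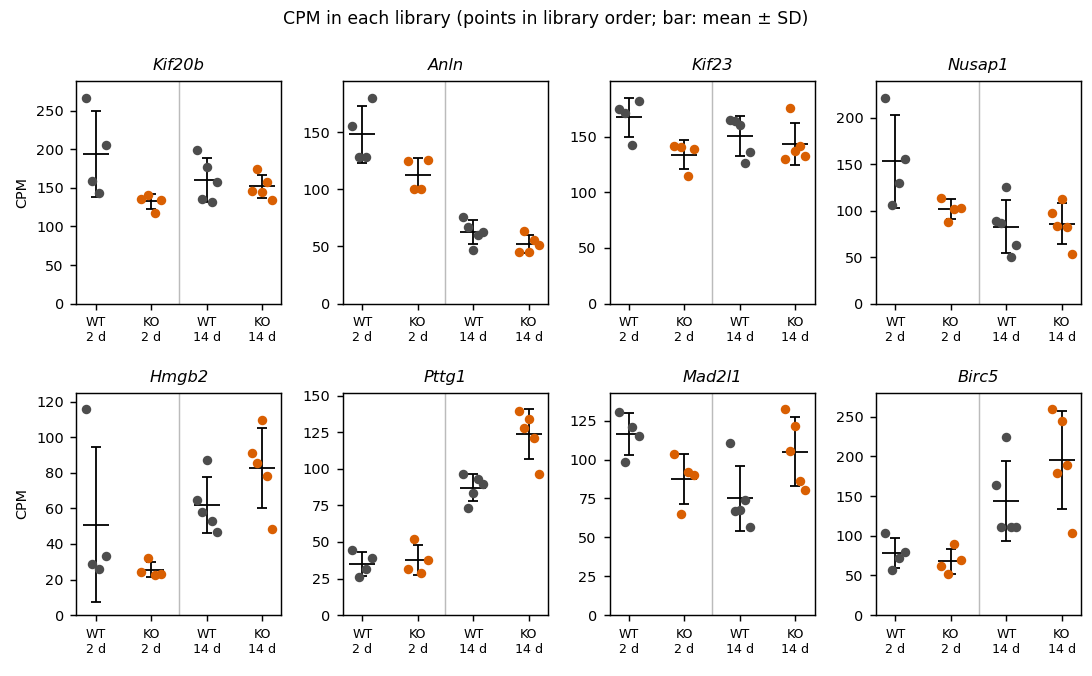
CPM in each library for 8 of the genes, by genotype and time (WT, wild type; KO, knock-out; bar, mean ± SD, n = 4 per group at 2 days and 5 at 14 days; libraries of each time were scaled together, so levels across the grey line are not on one scale). In Kif20b, Anln and Kif23 the 2-day knock-out points all lie below the wild-type points, the Hmgb2 panel shows the single high wild-type library at 116 CPM, and in Pttg1 at 14 days 4 of 5 knock-out points lie above every wild-type point.

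At the kinetochore the 5 estimates ran from -0.50 to -0.07. Cenpf, a large protein of the outer kinetochore, was at 260.1, 159, 142 and 218 CPM in wild type and 153, 155, 124 and 133 CPM in knock-out, with a log2 fold change of -0.46 ± 0.20 that was -0.30 without wild-type library 1. Its groups overlapped through wild-type library 3. Cenpe, the kinetochore motor, was at 340.1 ± 129 CPM in wild type and 240.3 ± 59.5 CPM in knock-out, a log2 fold change of -0.50 ± 0.26. Wild-type library 1 was the highest of the 8, and without it the estimate was -0.23. Ndc80 and Nuf2, 2 subunits of the complex that grips microtubules, had estimates of -0.18 and -0.14, and Cenpa, the centromeric histone, -0.07.

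All 4 checkpoint genes had negative estimates, and that of Mad2l1 was the lowest. Mad2l1, the inhibitor of Cdc20 (chr6:66535390-66547220, plus strand), was at 131, 98.4, 121 and 115 CPM in wild type and 104, 64.8, 91.7 and 90.1 CPM in knock-out. Knock-out library 1 overlapped the wild-type range and the other 3 lay below it, with a log2 fold change of -0.41 ± 0.17. Bub1, a kinase that recruits the checkpoint to kinetochores, was at 59.2, 79.1, 93.9 and 115 CPM in wild type and 79.9, 60.9, 81.4 and 69.8 CPM in knock-out, within the wild-type range. Its estimate was -0.25 ± 0.20, and those of Bub3 and Bub1b were -0.14 and -0.05.

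The genes of entry and exit did not share the low estimates to the same extent, although this difference between roles was not tested. Cdk1 was at 69.7, 48.7, 68.4 and 80.9 CPM in wild type and 64.7, 41.7, 57.4 and 54.1 CPM in knock-out, a log2 fold change of -0.30 ± 0.20 with overlapping groups. It was -0.19 without wild-type library 4 and -0.19 without knock-out library 2. Ccnb1, cyclin B1, was at 30.7, 26.7, 31.6 and 41.5 CPM in wild type and 38.01, 19.7, 28.7 and 21.1 CPM in knock-out, and Ccna2, cyclin A2, at 341, 175, 222 and 239 CPM in wild type and 191, 133, 250.01 and 199.96 CPM in knock-out. Both overlapped widely, with log2 fold changes of -0.28 ± 0.25 and -0.34 ± 0.23. Without wild-type library 1 that of Ccna2 was -0.14, and without knock-out library 2 it was -0.19. That of Ccnb1 was -0.14 without wild-type library 4, and with knock-out library 2 or 4 left out it was -0.16 or -0.18. The second B-type cyclin, Ccnb2, was at 95.5, 60.8, 91.3 and 102 CPM in wild type and 93.2, 108, 122 and 88.8 CPM in knock-out, the most positive estimate of the 39, at 0.24 ± 0.19. Plk1, the kinase that promotes entry and spindle assembly, was at 43.7, 53.9, 67.7 and 79.6 CPM in wild type and 65.5, 44.8, 84.6 and 65.3 CPM in knock-out, and Aurka, the spindle pole kinase, at 38.2, 35.7, 44.8 and 68.04 CPM in wild type and 46.2, 49.9, 54.8 and 38.99 CPM in knock-out. Neither differed beyond its spread, with estimates of 0.09 ± 0.23 and 0.02 ± 0.22. The rest of the entry genes, Cdc25b, Cdc25c and Tpx2, an activator of Aurka, had estimates of -0.20, -0.12 and -0.11.

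Aurkb, the kinase of the chromosomal passenger complex, was at 68.6, 73.4, 105 and 107 CPM in wild type and 106, 71.6, 116 and 76.7 CPM in knock-out, an estimate of 0.06 ± 0.21, while its partners Birc5 (survivin) and Incenp were at -0.20 and -0.12. Among the exit genes, Cdc20 was at 35.4, 40.9, 55.9 and 44.6 CPM in wild type and 54.7, 37.8, 54.6 and 40.9 CPM in knock-out, with an estimate of 0.09 ± 0.20. Pttg1, which encodes securin, Espl1 and Ube2c had estimates of 0.09, 0.10 and -0.07. In all of these passenger and exit genes the genotypes overlapped. The signs of Plk1, Aurka, Aurkb and Cdc20 at 2 days depended on the fit: with the opening digits of the column names as a block, their estimates were -0.20, -0.29, -0.17 and -0.02.

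**Figure D3:**
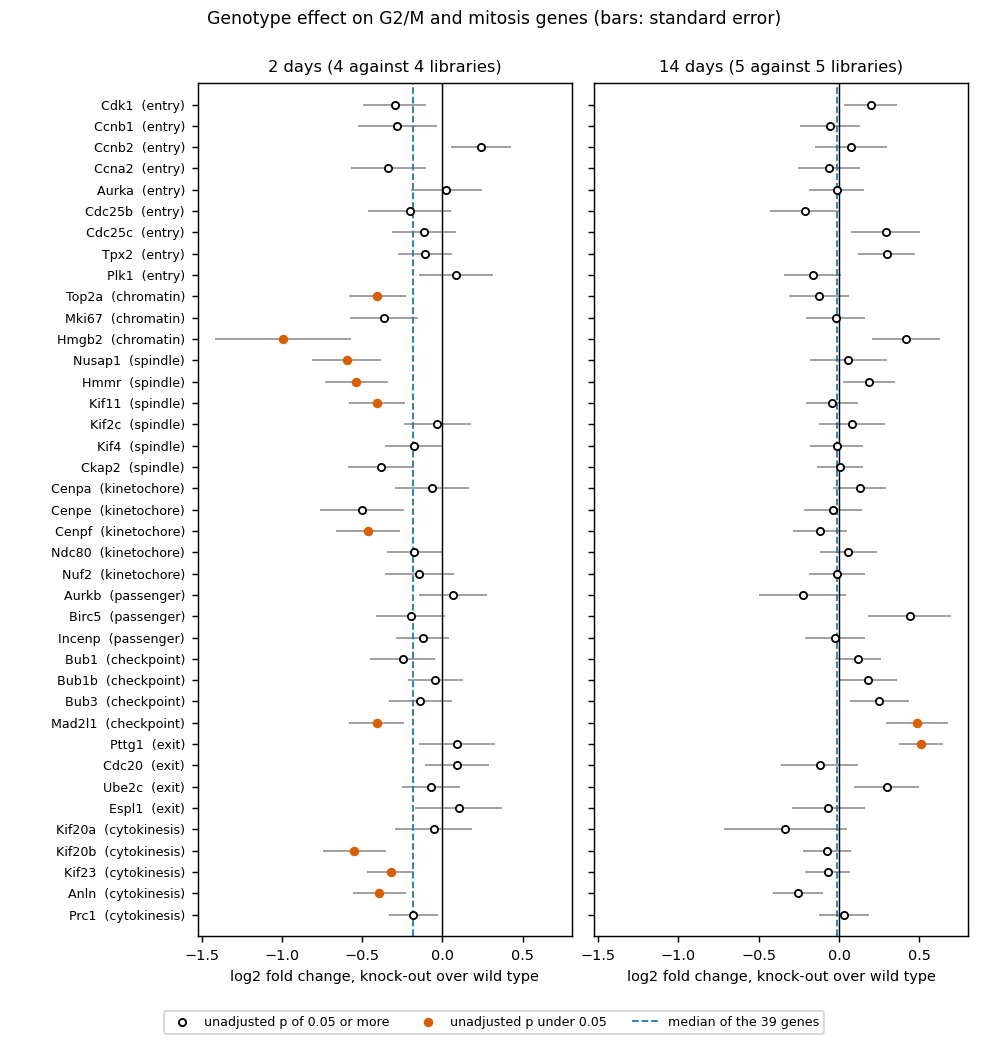
Log2 fold change of each of the 39 genes, knock-out over wild type, at 2 days (left, 4 against 4 libraries) and 14 days (right, 5 against 5), with its standard error; filled points have an unadjusted p under 0.05 in edgeR, none passed after adjustment, and the dashed line is the median of the 39 genes. The points lie mostly left of 0 at 2 days, with a median of -0.18, and around 0 at 14 days, with a median of -0.01.

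At 14 days the set was divided evenly about 0. Of the 39 genes 19 had a positive and 20 a negative estimate, with a median of -0.01 against 0.01 over the 13991 genes tested. edgeR's quasi-likelihood F test (Benjamini-Hochberg adjusted) called 0 of the 39 and 0 (0%) of all genes, the smallest adjusted p among the 39 being 0.957. DESeq2 and limma voom called none of the 39, with 1 (0.00715%) and 0 calls over all genes. At an unadjusted p under 0.05 edgeR listed 558 genes (3.99%), 341 higher (2.44%) and 217 lower (1.55%), and 2 of the 39 were among them, Pttg1 and Mad2l1, both higher in the knock-out. No gene of the set had groups that did not overlap, against 0.529% of all genes, and in none was every knock-out library below the wild-type mean, against 5.26%. In Cdk1, Bub1, Bub3, Mad2l1 and Pttg1 no knock-out library lay below that mean, and the share of all genes with this pattern is not given. Without wild-type library 1, in which 27 of the 39 genes had their highest wild-type value, 9 estimates were negative, the median was 0.12, 5 genes had an unadjusted p under 0.05 and 3 had knock-out libraries wholly above wild type, against 0.801% of all genes with the same libraries. Without knock-out library 5, the library rich in Gm models, 16 were negative, 6 genes were under 0.05, all higher in the knock-out, and 2 lay wholly above wild type, against 1.05% of all genes. Without wild-type library 3, 20 were negative, and 4 genes were under 0.05 as higher and 1 as lower. For sign and unadjusted p, shares over all genes are not given for these left-out fits, so those counts stand without a background.

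At 14 days 18 of 20 enterocyte marker estimates were negative, with sums of 2354 to 11094 CPM in wild type and 3070 to 10913 CPM in knock-out. All 10 goblet markers were positive, with sums of 1600 to 6595 and 2260 to 14348 CPM. Tuft markers were positive for 8 of 10, with sums of 32.3 to 157 and 57.9 to 183 CPM. Enteroendocrine markers were positive for 12 of 12, with sums of 184 to 517 and 258 to 684 CPM. Paneth markers were positive for 4 of 10, with sums of 2534 to 20520 and 4207 to 6844 CPM. Stem cell marker sums overlapped, at 2958 to 3995 and 2680 to 3741 CPM. None of these markers was called by edgeR's quasi-likelihood F test (Benjamini-Hochberg adjusted), with a smallest adjusted p of 0.957 in each list, and their part in the values of the 39 genes was not tested.

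Pttg1, which encodes securin, the inhibitor of separase (chr11:43420250-43426251, minus strand), had the smallest p. It was at 96.2, 72.99, 83.7, 92.8 and 89.3 CPM in wild type, in the order of libraries 1 to 5, and 139.7, 128, 134, 121 and 96.1 CPM in knock-out (in the same order). Of the knock-out libraries 4 lay above every wild-type library, and library 5 fell just under the highest wild-type library. The log2 fold change was 0.51 ± 0.14 (unadjusted p = 0.00233), and the adjusted p was 0.957 by edgeR's quasi-likelihood F test (Benjamini-Hochberg adjusted). The exact two-sided permutation test gave p = 0.0159, where the smallest p that 252 assignments can give is 0.00794. Column names at this time open their last part with B or J, of unstated meaning. The log2 difference was 0.67 among the B libraries (2 of each genotype) and 0.39 among the J libraries (3 of each). At 2 days the same gene did not separate the genotypes, as given above. Its RefSeq window, which lies inside the annotated gene, is the one printed without a match.

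All 4 checkpoint genes had positive estimates at 14 days, the reverse of their sign at 2 days. Mad2l1 was at 111, 66.9, 67.5, 73.8 and 56.4 CPM in wild type and 132, 106, 121, 85.9 and 80.2 CPM in knock-out. Wild-type library 1 lay among the knock-out libraries, and the other 4 wild-type libraries lay below all 5 knock-out libraries. The log2 fold change was 0.49 ± 0.20 (unadjusted p = 0.0264, edgeR; exact permutation p = 0.0556), with 0.46 among the B and 0.52 among the J libraries. Bub1 was at 57.02, 46.5, 51.04, 42.7 and 37.6 CPM in wild type and 51.2, 47.5, 57.9, 48.5 and 49.5 CPM in knock-out, an estimate of 0.12 ± 0.14 with overlapping groups. Bub1b and Bub3 had estimates of 0.18 and 0.25; among the B libraries their differences were -0.15 and 0.01, and among the J libraries 0.44 and 0.47.

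Next by p came Hmgb2, at 64.8, 58.03, 87.3, 52.9 and 46.7 CPM in wild type and 91.2, 85.3, 109.9, 78.1 and 48.4 CPM in knock-out. Knock-out library 5 lay near the wild-type minimum and wild-type library 3 within the knock-out range, and the log2 fold change was 0.42 ± 0.21. Birc5, the passenger protein survivin, was at 164, 110.5, 224, 111 and 111 CPM in wild type and 259.7, 179, 244, 189 and 103 CPM in knock-out, with an estimate of 0.44 ± 0.26. The lowest of all 10 libraries was knock-out library 5, and both groups were wide. Tpx2 was at 89.3, 79.9, 89.3, 71.1 and 73.7 CPM in wild type and 98.8, 99.8, 131, 105 and 60.9 CPM in knock-out, with 4 knock-out libraries above every wild-type library and library 5 below all of them. Its estimate was 0.30 ± 0.18. Anln kept a negative estimate, -0.26 ± 0.16, at 76.2, 66.7, 47.01, 59.8 and 63.01 CPM in wild type and 44.8, 63.7, 45.6, 55.8 and 51.6 CPM in knock-out, with overlapping groups. In Hmgb2, Birc5, Tpx2 and Pttg1, knock-out library 5 was the lowest knock-out library. That library also had the highest Dlg1 level of its time, at 101 CPM. Whether its share of Gm models or its Dlg1 level bears on these values was not tested.

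Most of the genes with low estimates at 2 days lay near 0 at 14 days. Kif20b was at 159.98 ± 28.3 CPM in wild type and 152 ± 15.3 CPM in knock-out (SD, n = 5 each), Kif23 at 150.3 ± 17.8 and 143 ± 18.7 CPM, and Nusap1 at 82.8 ± 28.9 and 86.03 ± 21.96 CPM. Their log2 fold changes were -0.08, -0.07 and 0.06, with approximate 95% intervals of -0.37 to 0.21, -0.34 to 0.20 and -0.41 to 0.53. Kif11 and Hmmr had estimates of -0.04 and 0.19, and the other spindle genes, Kif2c, Kif4 and Ckap2, 0.08, -0.01 and 0.01. None of these spindle and cytokinesis genes differed beyond its spread.

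The proliferation genes did not separate the genotypes at this time. Mki67 was at 726, 817, 817, 673 and 726 CPM in wild type and 575, 903, 711, 913 and 600.2 CPM in knock-out, a log2 fold change of -0.02 ± 0.19 with an approximate 95% interval of -0.39 to 0.34. Top2a was at 701, 652, 536, 536 and 618 CPM in wild type and 415, 673, 543, 698 and 464 CPM in knock-out, an estimate of -0.12 ± 0.19. In both genes 2 knock-out libraries were under the wild-type minimum, while others lay near or above the wild-type maximum. Cdk1 was at 234, 178, 135, 154 and 158 CPM in wild type and 215, 216, 211, 169 and 174 CPM in knock-out, where no knock-out library lay below the mean of the wild-type log2 values, although wild-type library 1 was the highest of all. Its estimate was 0.20 ± 0.17, with 0.08 among the B and 0.31 among the J libraries. Ccnb1 was at 74.1, 47.9, 42.6, 40.7 and 47.8 CPM in wild type and 46.4, 60.98, 54.9, 40.3 and 40.5 CPM in knock-out, with wild-type library 1 far above the rest, and Ccna2 at 173, 127, 107, 111 and 105 CPM in wild type and 108, 144, 146, 121 and 76.9 CPM in knock-out. Their estimates were -0.06 and -0.06, and Ccnb2 had 0.08.

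Plk1 was at 73.6, 65.3, 67.9, 68.7 and 54.4 CPM in wild type and 50.95, 87.7, 47.4, 60.7 and 47.4 CPM in knock-out, with 3 knock-out libraries under the wild-type minimum and library 2 over the maximum. Its estimate was -0.16 ± 0.18. Aurka was at 115, 82.3, 67.3, 71.7 and 68.2 CPM in wild type and 66.5, 91.4, 90.6, 82.3 and 69.6 CPM in knock-out and Aurkb at 119, 86.4, 33.6, 64.6 and 63.7 CPM in wild type and 43.9, 83.3, 72.8, 58.3 and 55.2 CPM in knock-out, with estimates of -0.01 ± 0.17 and -0.23 ± 0.27. In Aurkb the difference was -0.74 among the B libraries and 0.25 among the J libraries, so its sign depended on these names. Cdc20 was at 138, 79.6, 50.4, 72.8 and 77.6 CPM in wild type and 72.95, 108, 73.3, 55.3 and 75.9 CPM in knock-out, an estimate of -0.12 ± 0.24, and Cenpf at 272, 286, 224, 226 and 268 CPM in wild type and 164, 269.6, 228, 286 and 230.5 CPM in knock-out, an estimate of -0.12 ± 0.17. The remaining estimates were 0.30 for Ube2c, 0.29 for Cdc25c, 0.13 for Cenpa, 0.06 for Ndc80, 0.03 for Prc1, -0.01 for Nuf2, -0.02 for Incenp, -0.04 for Cenpe, -0.07 for Espl1, -0.21 for Cdc25b and -0.33 for Kif20a. Kif20a varied widely, at 6.14 to 32.4 CPM in wild type, and its difference was -0.90 among the B and 0.28 among the J libraries.

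A joint fit of all 18 libraries, with 4 group means, tested how far the genotype effects of the 2 times lay apart. The difference, 14 days minus 2 days, was positive for 31 of the 39 genes, with a median of 0.26, where 51.1% of the 15458 genes tested were negative and their median was -0.01. edgeR's quasi-likelihood F test (Benjamini-Hochberg adjusted) called 0 of the 39 and 0 (0%) of all genes, with a smallest adjusted p of 0.762 among the 39. At an unadjusted p under 0.05 it listed 921 genes (5.96%), 359 positive (2.32%) and 562 negative (3.64%), and 3 of the 39, all positive. DESeq2 called 11 of all genes (0.0712%) and limma voom 0, with none of the 39 in either. By sign, 17 genes were negative at 2 days and positive at 14 days, 15 negative at both times, 2 positive at both and 5 positive and then negative.

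Mad2l1 had the smallest p of the difference, at 0.89 ± 0.28 (unadjusted p = 0.00457), from -0.41 at 2 days and 0.49 at 14 days. Hmgb2 had the largest, at 1.40 ± 0.49 (unadjusted p = 0.00931), which was 0.61 without wild-type library 1 of 2 days. With no filter on low counts, this gene was called, at an adjusted p of 0.0196 by edgeR's quasi-likelihood F test (Benjamini-Hochberg adjusted), and so were 98 of all genes. Next were Hmmr, at 0.71 ± 0.26 (unadjusted p = 0.0139), and Cdk1, at 0.48 ± 0.25 (unadjusted p = 0.0709). In each of these 4 genes the estimate was below 0 at 2 days and above 0 at 14 days.

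Averaged over both times, 27 of the 39 estimates were negative, with a median of -0.09 against 0.01 over all genes. edgeR's quasi-likelihood F test (Benjamini-Hochberg adjusted) called 1 of 15458 genes (0.00647%), none of them in the set, where the smallest adjusted p was 0.829. Called by DESeq2 were 7 of all genes (0.0453%) and by limma voom 1, again none of the 39. At an unadjusted p under 0.05 edgeR listed 898 genes (5.81%), 501 higher (3.24%) and 397 lower (2.57%), with 1 and 5 of the 39 among them. The 4 genes of smallest p were Anln at -0.34 ± 0.11 (unadjusted p = 0.00667), Kif20b at -0.32 ± 0.12, Cenpf at -0.30 ± 0.13 and Pttg1 at 0.29 ± 0.13. Anln is the gene whose estimates at the 2 times were closest to each other among these, -0.39 and -0.26. All 5 cytokinesis genes had a negative average, from -0.34 to -0.09. With wild-type library 1 of 2 days and knock-out library 5 of 14 days both left out, 27 averages were again negative and the median was -0.08, but 1 gene instead of 5 was lower at an unadjusted p under 0.05. This count, for which no share over all genes is given in the alternative fits, was 2 with the block on column names. It was 1 without wild-type library 1 of 2 days alone, 2 without wild-type library 4 or knock-out library 4 of 2 days or library 2 of wild type or 1 of knock-out of 14 days, 3 without knock-out library 1 or 3 of 2 days or wild-type library 1 or knock-out library 3 or 5 of 14 days, and 4 to 7 without any other.

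Wild-type libraries of 14 days were set beside those of 2 days in the same fit, with all libraries scaled jointly. The times are separate tables, so time, sequencing run and cohort cannot be told apart. edgeR's quasi-likelihood F test (Benjamini-Hochberg adjusted) called 8251 of 15458 genes (53.4%), 27.7% higher and 25.7% lower at 14 days. Of the 39 genes it called 26, with 22 lower and 4 higher at 14 days, and the median was -0.69 against 0.12 over all genes tested, a distance of -0.81. With upper-quartile factors 20 were called lower and 9 higher, beside 8257 calls over all genes. With both libraries that stand apart left out the counts were 22 and 7, beside 8223 calls. Without wild-type library 1 of 2 days alone they were 22 and 6, and without wild-type library 3 of 14 days 21 and 6. Leaving out 1 library gave 7660 to 8429 calls over all genes. For these fits the calls over all genes are not given by direction. The distance between the medians was -0.73 to -0.93 under 6 other scalings or tools. These moved the median of all genes to between 0.09 and 0.25, and 24 of the 26 were called under every one of them. DESeq2 and limma voom each called 56.2% of all genes. Cenpf and Hmgb2, which were not called, changed sign under some of them. The estimates varied with exon length to the same degree in the set and in all genes, with r = -0.33 between the log2 fold change and log2 exon bases over the 39 genes and over 15340 genes, given as a description over genes that share libraries.

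Lower at 14 days were all 6 spindle genes. Kif11 fell from 374, 259, 290.2 and 387 CPM on the joint scale to 123, 95.8, 78.6, 72.6 and 90.4 CPM, and no library of 14 days reached the lowest of 2 days. Its log2 fold change was -1.83 ± 0.17, the largest of the set, with an adjusted p of 2.29e-08 by edgeR's quasi-likelihood F test (Benjamini-Hochberg adjusted). The other 5 changed by -1.32 ± 0.25 (Nusap1), -0.99 ± 0.17 (Kif4), -0.85 ± 0.19 (Hmmr), -0.76 ± 0.17 (Ckap2) and -0.59 ± 0.21 (Kif2c). Anln fell from 184, 151, 153 and 214 CPM to 65.8, 58.97, 41.9, 52.4 and 55.5 CPM on the joint scale, with the 2 times wholly apart and a log2 fold change of -1.67 ± 0.16. Of the other cytokinesis genes, Kif20b (-0.71 ± 0.17) and Kif23 (-0.59 ± 0.14) passed, and Kif20a (-0.69) and Prc1 (0.26) did not.

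Mki67 fell from 2758, 1550.1, 1516 and 2077 CPM to 626, 723, 728, 589.5 and 639 CPM, so that every library of 14 days lay below every one of 2 days, with a log2 fold change of -1.58 ± 0.20. Top2a changed by -0.74 ± 0.18. Bub1 fell from 70.1, 93.1, 112 and 136 CPM to 49.2, 41.2, 45.5, 37.4 and 33.1 CPM, again with no overlap, and a log2 fold change of -1.31 ± 0.18. Its checkpoint partners Bub1b (-1.19 ± 0.18) and Mad2l1 (-1.06 ± 0.20) fell too, while Bub3 (0.38) did not pass. Also lower were Ccna2 (-1.40 ± 0.22), Tpx2 (-1.20 ± 0.18), Cdc25c (-0.98 ± 0.21), Espl1 (-0.91 ± 0.26), Ube2c (-0.87 ± 0.21), Nuf2 (-0.72 ± 0.20), Aurkb (-0.70 ± 0.26) and Incenp (-0.68 ± 0.19). Among these 22 genes the adjusted p ran from 2.29e-08 (Kif11) to 0.0297 (Aurkb) by edgeR's quasi-likelihood F test (Benjamini-Hochberg adjusted).

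With all libraries and the scaling used throughout, 4 genes were called higher at 14 days: Cenpa, Cdk1, Pttg1 and Cdc25b. Cenpa, the histone H3 variant that marks centromeres, rose from 46.2, 27.5, 37.6 and 34.9 CPM to 94.3, 95.2, 102, 67.8 and 80.3 CPM, with no overlap and a log2 fold change of 1.27 ± 0.20. Cdk1 rose from 82.5, 57.4, 81.3 and 95.9 CPM to 202, 158, 119.9, 135 and 139 CPM, a log2 fold change of 0.93 ± 0.18, also with the times wholly apart. Of its cyclin partners Ccna2 fell, and Ccnb1 (0.20) and Ccnb2 (0.33) did not pass; their difference from Cdk1 was not tested. Pttg1 rose from 52.8, 30.5, 37.7 and 46.01 CPM to 83.1, 64.6, 74.6, 81.3 and 78.6 CPM, a log2 fold change of 0.87 ± 0.19, while Espl1, whose product securin holds in check, fell. Cdc25b rose from 35.6, 16.3, 22.7 and 32.8 CPM to 47.7, 49.8, 31.6, 37.5 and 40.3 CPM, a log2 fold change of 0.62 ± 0.24 (adjusted p = 0.0326, edgeR's quasi-likelihood F test, Benjamini-Hochberg adjusted), and its values at the 2 times overlapped. Cdk1 and Top2a, printed above with both promoter words, therefore changed in opposite directions. The uncalled estimates were 0.49 (Cdc20), 0.45 (Birc5), 0.36 (Aurka), -0.04 (Cenpf), -0.15 (Hmgb2), -0.25 (Cenpe), -0.32 (Ndc80) and -0.32 (Plk1), beside those already given.

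**Figure D4:**
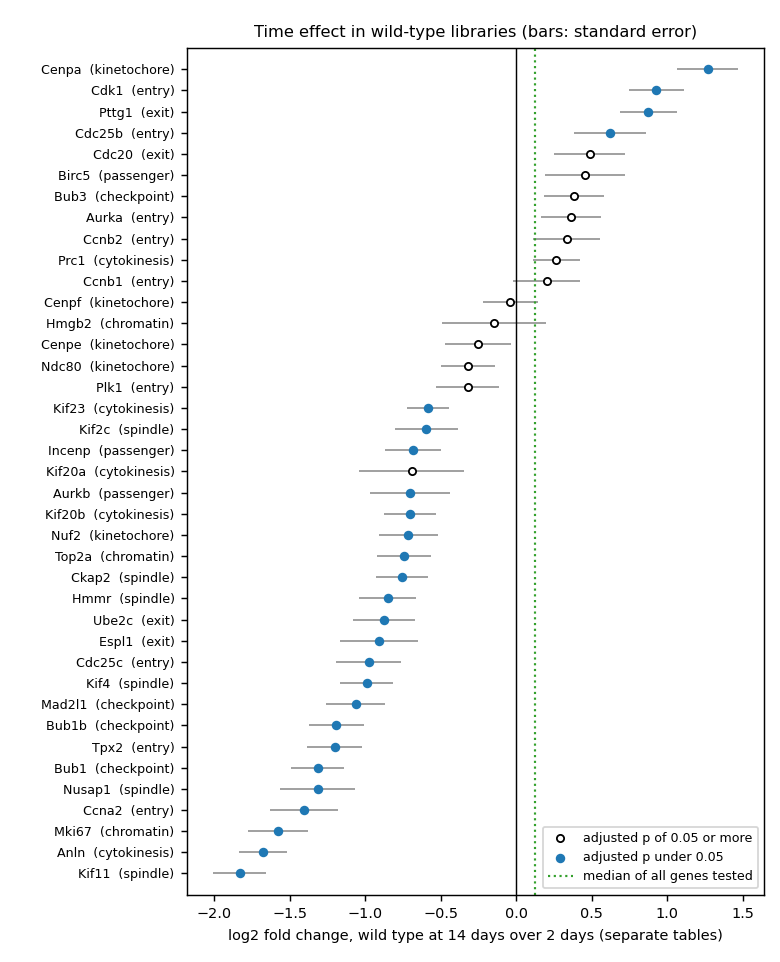
Log2 fold change of each of the 39 genes between wild-type libraries of 14 days (n = 5) and 2 days (n = 4), ordered by value, with its standard error; filled points passed at an adjusted p under 0.05 in edgeR, and the dotted line is the median of all genes tested, 0.12. Kif11 is at the bottom with -1.83 and Cenpa at the top with 1.27, and 22 of the 26 filled points lie left of 0.

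Cell type markers differed between the tables too. In wild type 12 of 15 stem cell markers were called lower and 0 higher at 14 days by edgeR's quasi-likelihood F test (Benjamini-Hochberg adjusted), and 8 of 10 goblet, 6 of 10 tuft and 7 of 20 enterocyte markers were called higher, with 3 enterocyte markers lower. On the scale of each time's own table, wild-type stem cell sums were 6288 to 6769 CPM at 2 days and 2958 to 3995 CPM at 14 days, goblet sums 525 to 698 and 1600 to 6595 CPM, tuft sums 8.52 to 32.97 and 32.3 to 157 CPM, and enterocyte sums 2246 to 2774 and 2354 to 11094 CPM. By the same test 3 of 10 Paneth markers were called higher and 1 lower at 14 days, and 4 of 12 enteroendocrine markers higher and 1 lower. Mitochondrial shares were 26.1% to 49.1% and 6.21% to 26.3% over all libraries. The part of any of these in the time difference was not tested.

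The genes varied together from library to library within a group. Over the 741 pairs of the 39 genes, the median Pearson r between deviations of log2 CPM from the group means was 0.40 over 8 libraries at 2 days and 0.41 over 10 libraries at 14 days. The same measure between the 39 genes and other genes had a median of -0.01 and 0.01, and with S phase genes 0.05 and 0.27. These are descriptions, since all pairs share the same libraries and their depth. Without wild-type library 1 the 2-day median was 0.53, and without knock-out library 5 the 14-day median was 0.40. Kif11 had the highest median r with the others at both times, 0.60 and 0.58. At 2 days the closest pairs were Ccna2 with Birc5 (r = 0.98), Kif20b with Cenpf (0.97) and Mad2l1 with Cenpa (0.97). At 14 days they were Kif4 with Anln (0.98), Cdk1 with Ccnb2 (0.97) and Birc5 with Hmgb2 (0.94).

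Espl1 went against the rest at 2 days, with a median r of -0.28 with the others and -0.98 with Hmgb2. It was at 17.5, 43.3, 46.7 and 44.2 CPM in wild type, so that library 1, the highest for Hmgb2, was by far the lowest for Espl1. The knock-out libraries, at 41.3, 37.5, 44.5 and 39.2 CPM, held neither extreme. At 14 days Espl1 had a median r of 0.17, and the lowest was that of Incenp, at 0.01, which stood high in 1 wild-type library. Wild-type library 1 at 14 days held the highest wild-type value for 27 of the 39 genes and knock-out library 2 the highest knock-out value for 21, and wild-type library 4 held the lowest for 17.

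Other cell cycle genes had medians closer to 0 at 2 days, and no member of any list below was called there or at 14 days by edgeR's quasi-likelihood F test (Benjamini-Hochberg adjusted), with smallest adjusted p values of 0.866 and 0.957. Of 118 other mitosis genes, 87 had a negative estimate at 2 days, with a median of -0.14, and 51 at 14 days, with a median of 0.03. Those of smallest p at 2 days were Kif15, a spindle motor, at 265 ± 39.6 CPM in wild type and 187 ± 13.2 CPM in knock-out (log2 fold change -0.50 ± 0.15), Anapc13, a subunit of the anaphase-promoting complex, at 0.72 ± 0.23, and Plk4, the kinase of centriole duplication, at -0.54 ± 0.19. At 14 days they were Cenpk (0.50 ± 0.22) and Cenph (0.36 ± 0.16), of the inner kinetochore, and Stmn1 (0.43 ± 0.19), which destabilises microtubules.

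S phase genes had a median of -0.09 at 2 days, with 32 of 49 tested negative, and 0.09 at 14 days, with 18 of 50 negative. Prim1, a primase subunit, had the smallest p at 2 days (-0.56 ± 0.23), followed by Gins3 (-0.90 ± 0.48) and Pold1 (0.50 ± 0.27), and Gins4 (0.50 ± 0.20), Pola1 (0.33 ± 0.14) and Gins2 (0.52 ± 0.24) at 14 days. The 22 G1/S regulators had medians of -0.08 and -0.04, with 14 and 13 negative. Their smallest p values were those of E2f8 (-0.64 ± 0.35), E2f3 (-0.34 ± 0.19) and E2f2 (-0.47 ± 0.29) at 2 days, and of Myc (-0.52 ± 0.22), Gmnn (0.49 ± 0.21), which encodes the replication inhibitor geminin, and Cdk4 (0.33 ± 0.16) at 14 days. Cell cycle brakes had medians of 0.05 and -0.05, with 13 and 11 of 23 tested positive. Cdkn2b, an inhibitor of the G1 kinases, was at 0.428 ± 0.395 CPM in wild type and 3.05 ± 2.99 CPM in knock-out at 2 days and had the smallest p there (2.83 ± 1.11), and Mxd1, an antagonist of Myc, had it at 14 days (-0.42 ± 0.18). In the difference between times, the medians were 0.18 for the other mitosis genes, 0.17 for S phase genes, 0.13 for G1/S regulators and -0.15 for brakes, beside 0.26 for the 39 genes.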

How the data were processed

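Each time has its own table of raw counts deposited by the authors, with Ensembl genes in rows and libraries in columns. The submitters' processing notes name STAR 2.4.2a, bcl2fastq 2.20.0.422 and build GRCm38. Not given in the sources used here are the counting program, its strand setting and the annotation. Per the labels' protocols, 5000 to 10000 sorted cells gave poly(A) RNA for SmartSeq and Nextera XT libraries, with no molecular identifiers named, so counts include amplified copies. Totals were 11.1 to 40.5 M counts per library. Symbols and coordinates came from GENCODE M21 (42462 of 43432 identifiers matched).

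Genes were kept by filterByExpr (minimum count 10) and all 39 passed. Libraries were scaled by TMM and tested with edgeR 4.0.16 in R 4.3.3 (quasi-likelihood, Benjamini-Hochberg over all genes tested, threshold 0.05), each time alone, or jointly with 4 group means for the difference, the average and the time effect. Standard errors are the absolute log2 fold change over the square root of F. The 95% intervals use a normal quantile with these standard errors, so they are approximate and narrower than intervals from the F test. Log2 CPM used a pseudocount of 0.5. Alternatives were DESeq2 1.42.0, limma 3.58.1 (voom), other scalings and filters, and leaving out each library; the block on column names and leaving out both libraries that stood apart were chosen after seeing the data. The scripts were tested on simulated data.

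The 39 genes and the other lists were chosen with earlier results of these data known. Described in full were the 6 genes of smallest p per time, 11 role leaders, the 4 of smallest p in each joint contrast, every gene called by any tool, the highest and lowest level, and up to 3 genes per other list and time. Further genes were named after their values were seen.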

Additional observations from a re-analysis of the deposited data

Results flagged for a closer look

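Each gene was looked at in each of the 4 groups, 156 groups in all, for a library whose gap to its nearest neighbour took up most of the group's range on the log2 scale. Chance alone marks about 1 in 20 such groups, and 9 of the 156 were marked here, which is near that share.

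Wild-type library 1 at 2 days, the deepest library, was marked both ways. It held 116 CPM of Hmgb2, where the other 3 wild-type libraries held 25.7 to 33.2 CPM, and 17.5 CPM of Espl1, where they held 43.3 to 46.7 CPM. Among the knock-out libraries of 2 days, library 3 was low in Kif23 (114 CPM against 139 to 142), library 1 high in Bub1b (142 CPM against 114 to 117), and library 2 low in Kif20a (18.2 CPM against 20.2 to 20.3) and Cdc25b (16.8 CPM against 20.3 to 20.9). In these last 2 genes the other 3 libraries were almost equal, so that a small gap was enough.

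At 14 days, wild-type library 1 was high in Ccnb1 (74.1 CPM against 40.7 to 47.9), wild-type library 3 high in Incenp (142 CPM against 75.3 to 84.3), and knock-out library 2 high in Kif23 (176 CPM against 129.7 to 142). Wild-type library 3 also had the highest mitochondrial share (26.3%) and the highest Paneth marker sum (20520 CPM) of its time; the part of these in its Incenp value was not tested.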

How the results depend on the processing

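No paired analysis was possible because the column names of the deposited tables hold no replicate number, so that no library can be tied to a numbered sample. Over all alternatives none of the 39 genes was called between genotypes at either time or in the average; in the difference between times 1 was, Hmgb2, without a filter on low counts. The count of all genes called depended more on the fit. At 2 days it was 7 without a filter, 11 with DESeq2, 2 in the joint fit and 0 to 1 with a library left out (1 without wild-type library 3). At 14 days it was 2 without a filter and 1 with DESeq2. For the average it was 40 without a filter, 7 with DESeq2, 0 with the block on column names, 2 with both libraries that stood apart left out, and 1 to 2 with 1 library left out (2 without wild-type library 3 or knock-out library 1 or 4 of 2 days, or wild-type library 3 or knock-out library 5 of 14 days). For the difference it was 98 without a filter, 11 with DESeq2 and 0 to 1 with a library left out (1 without wild-type library 3 or knock-out library 1 of 2 days). The cause was not tested.

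Among the genes described in full, signs turned in 7. At 2 days the block on column names gave Aurka -0.29, Aurkb -0.17, Cdc20 -0.0164 and Plk1 -0.20, and leaving out 1 library gave Aurka -0.0841 to 0.26, Aurkb -0.077 to 0.17, Cdc20 -0.00826 to 0.21 and Plk1 -0.0806 to 0.24 at the extremes. At 14 days Aurka was 0.00713 with limma voom and 0.00806 with the block, and leaving out 1 library gave Aurka -0.0781 to 0.15, Aurkb -0.41 to 0.0138, Ccna2 -0.16 to 0.0845, Ccnb1 -0.15 to 0.12, Cdc20 -0.27 to 0.14 and Mki67 -0.11 to 0.057. The median of the 39 genes ran from -0.29 to -0.10 at 2 days and from -0.07 to 0.12 at 14 days with a library left out. In the time effect 24 to 28 of the 39 genes were called with a library left out, beside 7660 to 8429 of all genes. With upper-quartile factors or with both libraries that stood apart left out it was 29, beside 8257 and 8223 of all genes. The number of libraries, 4 or 5 per group, and the spread between them limited which differences between genotypes could be detected.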
